A study of Homo sapiens with 29 samples.

Results

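The nuclear genes for the subunits of mitochondrial respiratory complexes I to V were followed across 18 RNA sequencing libraries of IMR90 ER:RAS cells. Members were chosen by gene symbol alone (NDUFA, NDUFB, NDUFC, NDUFS and NDUFV genes for complex I, SDH genes for complex II, UQCR genes for complex III, COX genes for complex IV and ATP5 genes for complex V), which gave 83 of the 28266 genes in the count table. They divide into 37 members of complex I, 4 of complex II, 10 of complex III, 14 of complex IV and 18 of complex V. IMR90 ER:RAS is an established line of human lung fibroblasts infected with a retrovirus that carries oncogenic RAS fused to the estrogen receptor, so that 4-hydroxytamoxifen (4OHT) activates RAS and the cells enter senescence, a lasting arrest of division. All 3 groups carry this transgene, were transfected with siRNA and were collected on day 7. DMSO_siNT received the solvent and non-targeting siRNA, 4OHT_siNT received 4OHT and non-targeting siRNA, and 4OHT_siSMARCA4 received 4OHT and siRNA against SMARCA4, the ATPase of the SWI/SNF chromatin remodelling complex. Each group had 6 libraries, and each arm used siRNAs numbered 2 and 4. A library is named by its siRNA number and a set label (1 to 3, followed by V or VM, letters whose meaning is not stated).

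The respiratory chain passes electrons from NADH through complex I, and from succinate through complex II, by way of complexes III and IV to oxygen. Complexes I, III and IV pump protons as they do so, and complex V, the ATP synthase, uses the proton gradient to make ATP. Most subunits are encoded in the nucleus and imported, a smaller number are encoded by mitochondrial DNA, and complex II is encoded by nuclear genes only. Many nuclear subunit genes are known to have binding sites for the transcription factors NRF1, GABPA (an ETS family factor) and YY1 near their start. Cells in oncogene-induced senescence are known for altered mitochondria and higher oxygen use, and fibroblast lines express the ubiquitous rather than the heart and muscle isoforms of complex IV.

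Promoters were examined for the letters of these motifs, a feature that the choice of members by symbol did not use. A RefSeq promoter on GRCh38.p14, from 250 bases before to 50 bases after the start, was matched for 67 of the 83 members. The NRF1 letters GCGCATGC were found on either strand in 13 of the 67 members (19.4%), against 3.27% of 27305 promoters. The ETS letters CCGGAAGT were found in 10 members (14.9%, against 4.44%) and the YY1 letters AAGATGGC in 11 members (16.4%, against 3.03%). At least 1 of the motifs stood in 28 members, or 41.8%, against 9.94% of all promoters. The NRF1 letters nearly repeat themselves on the other strand, so overlapping matches on both strands were counted once per promoter. The bases before the start are printed here for 1 member each of complexes I to IV, 5′ to 3′ along the gene. Motif matches on either strand that end before the start are in capitals. A further ETS match of COX5B crosses the start and is left in lower case.
NDUFS6, complex I, NRF1 motif, chr5:1801307-1801406, plus strand: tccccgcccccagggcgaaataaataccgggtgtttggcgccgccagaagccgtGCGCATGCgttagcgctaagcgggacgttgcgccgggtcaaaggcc
SDHB, complex II, NRF1 motif, chr1:17054033-17054232, minus strand: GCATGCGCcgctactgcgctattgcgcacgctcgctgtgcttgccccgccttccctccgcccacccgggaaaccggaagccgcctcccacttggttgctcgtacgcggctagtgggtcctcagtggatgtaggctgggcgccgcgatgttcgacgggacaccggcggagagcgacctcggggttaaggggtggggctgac
UQCRH, complex III, ETS motif, chr1:46303598-46303697, plus strand: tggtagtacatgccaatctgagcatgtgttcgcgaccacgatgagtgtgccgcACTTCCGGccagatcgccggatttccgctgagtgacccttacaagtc
COX5B, complex IV, NRF1 and ETS motifs, chr2:97645926-97646061, plus strand: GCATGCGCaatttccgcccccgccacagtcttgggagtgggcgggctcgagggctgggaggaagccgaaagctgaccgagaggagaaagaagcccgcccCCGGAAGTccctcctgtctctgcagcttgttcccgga

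Total counts per library ranged from 9657309 to 18039313, and the members took 0.768% to 1.11% of them in 17 of the 18 libraries. SMARCA4 was at 189 to 232 CPM (counts per 1e6 counts of the library after TMM scaling, the unit of the levels given here) in DMSO_siNT, 275 to 330 CPM in 4OHT_siNT and 70.4 to 141 CPM in 4OHT_siSMARCA4, so each knockdown library lay below both other groups, and the log2 fold change of 4OHT_siSMARCA4 over 4OHT_siNT was −1.61 ± 0.14 (SE; edgeR adjusted p = 1.3e-06). The fibroblast markers examined, given per library total without TMM, were detected in every library. Their lowest values ranged from 34.4 CPM for PDGFRB to 3558 CPM for VIM, with COL1A1 at 1434 CPM. The epithelial markers KRT5 and SFTPC had no count and CDH1 at most 2. Of the other epithelial, endothelial and immune markers, EPCAM reached 1.86 CPM, VWF 4.93 CPM and CD68, which fibroblast lines also express, 76.1 CPM. Fewer cells of a type and less RNA per cell cannot be told apart in such bulk samples. Nothing in the labels says that libraries of a group came from separate cultures, so p-values measure the spread between these libraries, which may be technical.

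Of the 83 members, 77 passed the filter on low counts: all 37 of complex I and all 4 of complex II, 9 of complex III, 10 of complex IV and 17 of complex V. The members that did not pass were tissue-restricted isoforms, a pseudogene and a copy gene. The muscle isoform COX6A2 and the testis isoform COX8C had 0 counts in every library, the testis isoform COX7B2 had at most 1 count, and UQCRBP1, a UQCRB pseudogene, at most 2. The testis isoform COX6B2 and ATP5MGL, a copy of ATP5MG, reached 3 counts each. Symbols follow the table: ATP5MD and ATP5MPL are also called ATP5MK and ATP5MJ. NDUFA4, named for complex I, is now known as a subunit of complex IV. The 13 protein genes of mitochondrial DNA were not analysed here.

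The library labelled DMSO_siNT 4-2V stood apart in these genes. The members took 2.12% of its counts, more than in any other library. It had the fewest counts, 9657309, and the most genes detected, 17915 against 15993 to 16888 in the rest. Of 77 members tested, 66 (85.7%) were higher in it than in each of the other 5 DMSO_siNT libraries, against 35.7% of all genes. 53 members (68.8%) were at 2-fold or more over the mean of the other 5, against 15.6% of all genes. The transgene's sources read low in it, with ESR1 at 29.5 CPM against 1034 to 1316 CPM and HRAS at 436 CPM against 2165 to 2852 CPM. The main comparisons are therefore given with all 18 libraries and without this one.

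**Figure D1:**
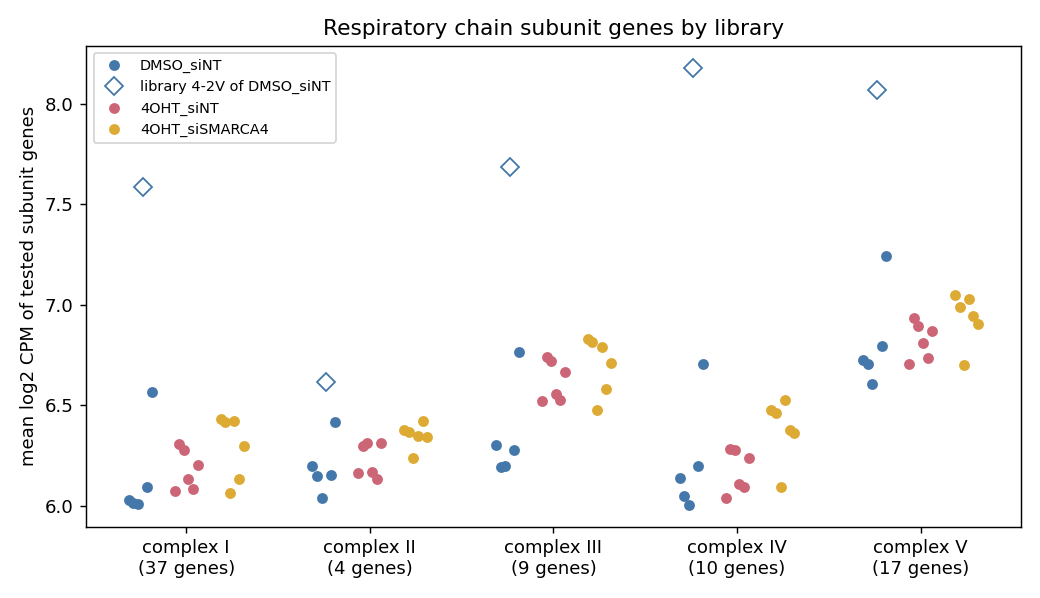
Mean log2 CPM (vertical axis) of the tested members of each complex (horizontal axis), with a point for each library and a diamond for DMSO_siNT 4-2V. The diamond lies at 8.18 in complex IV, where the next DMSO_siNT library lies at 6.71, and at 6.61 in complex II, where the next lies at 6.42.

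The difference was uneven among members. NDUFB1, a small accessory subunit of complex I, was at 401 CPM in 4-2V and at 24.99 to 40.2 CPM in the other 5 DMSO_siNT libraries, 13.5-fold over their mean. ATP5ME, the e subunit of the ATP synthase membrane part, was at 854 CPM against 58.8 to 115 CPM, 11.1-fold. COX6C, a small structural subunit of complex IV, was at 922 CPM against 75.1 to 138 CPM, 10.1-fold. The next ratios were 9.44-fold for NDUFC2 and 7.69-fold for NDUFA13, both accessory subunits of complex I. Only 5 members lay below all other 5 libraries. ATP5F1B, the catalytic beta subunit of the ATP synthase, was at 369.9 CPM against 657 to 764 CPM, or 0.524 of their mean. The others were ATP5F1A (0.723), the catalytic subunit's alpha partner, UQCRC2 (0.753), a core protein of complex III, SDHA (0.767), the flavoprotein of complex II, and NDUFS1 (0.870), the largest core subunit of complex I. CYC1, the cytochrome c1 of complex III, which the symbols used here leave out, was at 6.45 CPM against 86.9 to 104 CPM.

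Transcript length moved with the difference among members, though not evenly. Members are short: 46 of the 77 have a canonical transcript under 1 kb in GENCODE 44, and their median is 756 bases against 3316 bases for all genes. The median log2 ratio of 4-2V to the mean of the other 5 was 1.63 for these 46 members and 1.13 for all 855 genes under 1 kb. For the 8 members of 4 kb and over it was 0.32, against −0.27 for 5110 genes of that length. In between, it was 0.99 for 15 members of 1 to 2 kb and 1.17 for 8 members of 2 to 4 kb. Across the 77 members, which share the same libraries, Pearson's r between the log ratio and log length was −0.42 and the rank correlation −0.37. Chosen by symbol, the cytosolic ribosomal protein genes had a median log2 ratio of 1.48 (77 genes) and the mitochondrial ribosomal protein genes one of 0.81 (76 genes). Cytosolic ones stood at 1.51 under 1 kb and 1.43 at 4 kb and over (6 genes). Mitochondrial ones stood at 1.34 under 1 kb, 0.66 at 1 to 2 kb and 0.99 at 4 kb and over (6 genes). The part of length in the difference was not tested. Among the other 5 DMSO_siNT libraries, 4-3VM was the highest for 75 of 77 members (97.4%), so alternatives without both were added. How often 4-3VM was the highest over all genes was not counted. The share is therefore not shown to be particular to the members.

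**Figure D2:**
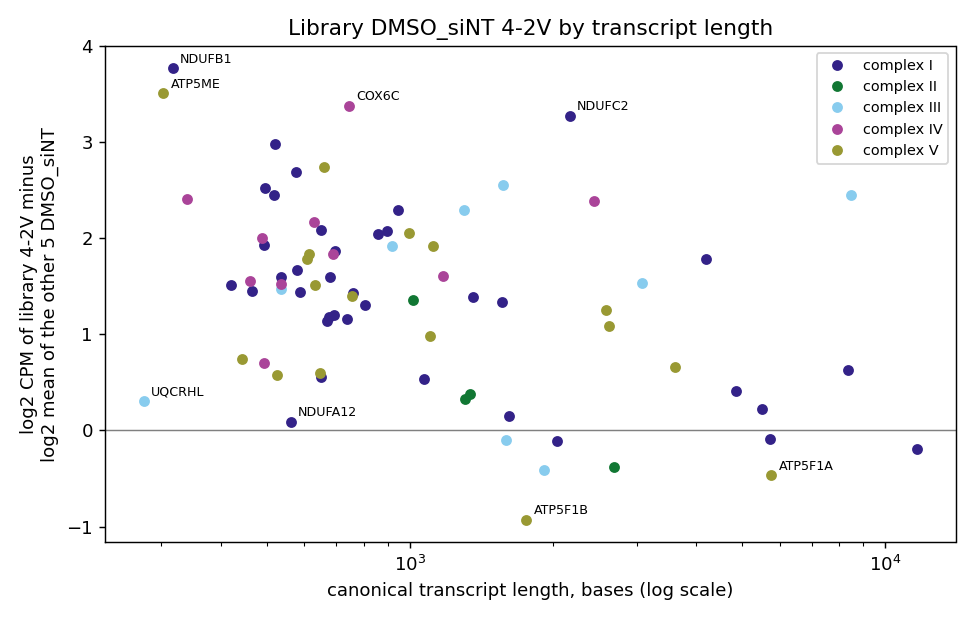
Log2 ratio of DMSO_siNT 4-2V to the mean of the other 5 DMSO_siNT libraries (vertical axis) against canonical transcript length in bases on a log scale (horizontal axis), with a point for each of 77 members coloured by complex. NDUFB1 and ATP5ME, both under 1 kb, lie highest and ATP5F1B lies lowest.

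To ask what oncogene-induced senescence did to these genes, 4OHT_siNT was compared with DMSO_siNT. With 18 libraries, 6 of the 77 members were called higher (7.79%, against 23.9% of all genes tested) and 15 lower (19.5%, against 28.9%) by the quasi-likelihood test of edgeR at an adjusted p under 0.05. The median log2 fold change of the members was −0.36, and that of all genes −0.05. Without DMSO_siNT 4-2V, 14 members were called higher (18.2%, against 27.9% of all genes) and 8 lower (10.4%, against 30.3%), and the median was 0.04. The sign of the fold change turned from negative to positive in 25 members. Members called the same way in both fits numbered 6 higher (among them NDUFV3, SDHA, UQCRC1, UQCRHL and ATP5F1B) and 8 lower (NDUFA4, NDUFA5, NDUFA9, NDUFA12, NDUFS4, SDHD, COX7A2, COX7C). Within VM sets, where both groups have libraries, 18 members were called, 10 of them higher (53.5% of all genes in either direction), and the median was −0.05. All 8 of the lower members and 4 of the 6 higher ones were called there too. Markers moved with this comparison. Both proliferation markers examined were called lower, with MKI67 at −5.74 ± 0.36 (edgeR adjusted p = 1.53e-10). Of 8 fibroblast markers 1 was called higher and 3 lower (1 and 5 without 4-2V), with a median log2 fold change of −0.58 and COL1A2 lowest at −1.52, and the endothelial marker VWF was called higher at 1.23 from a low level. Their part in the members' values was not tested.

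**Figure D3:**
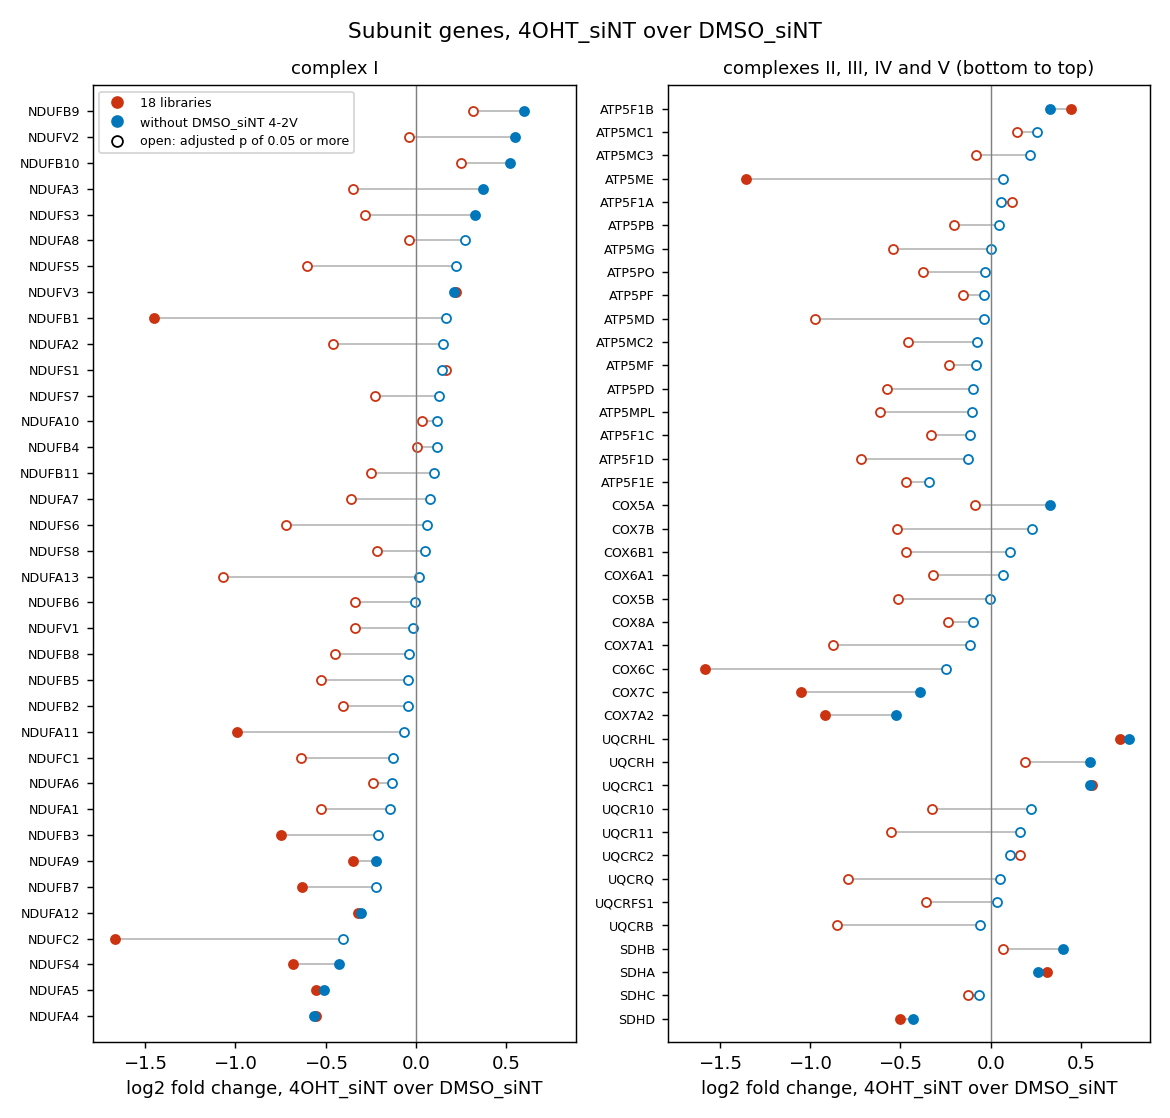
Log2 fold change of 4OHT_siNT over DMSO_siNT (horizontal axes) for each tested member except 1 not reported by name, with all 18 libraries (red) and without DMSO_siNT 4-2V (blue), filled where the adjusted p is under 0.05. Members such as NDUFB1, NDUFC2, COX6C and ATP5ME move far to the right without that library, while NDUFA4, NDUFA12, UQCRC1 and UQCRHL stay in place.

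Complex I takes electrons from NADH with 7 nuclear core subunits of the NDUFS and NDUFV series, and the accessory subunits surround this core. NDUFV3, an accessory subunit beside the flavoprotein part, was at 55.5, 55.9 and 68.7 CPM (lowest, median and highest library) in DMSO_siNT, at 64.9, 67.9 and 73.3 CPM in 4OHT_siNT and at 59.1, 63.4 and 72.8 CPM in 4OHT_siSMARCA4. The groups overlapped, and the log2 fold change of 4OHT_siNT over DMSO_siNT was 0.22 ± 0.08 (SE; edgeR adjusted p = 0.0278). Within VM sets it was not called (adjusted p = 0.177).

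Accessory subunits of complex I, with NDUFA4 left out, counted 1 higher and 9 lower of 29 with 18 libraries (against 23.9% and 28.9% of all genes), and 4 higher and 4 lower without 4-2V (against 27.9% and 30.3%). NDUFC2 had the largest fall of the complex with 18 libraries, at −1.67 ± 0.52 (adjusted p = 0.011), and was not called without 4-2V, at −0.40 ± 0.19 (adjusted p = 0.0743). Its levels were 42.6, 47.5 and 494 CPM in DMSO_siNT and 26.2, 36.9 and 57.5 CPM in 4OHT_siNT, and they overlapped. NDUFA5, an accessory subunit of the matrix arm, was at 35.7, 41.9 and 47.9 CPM in DMSO_siNT and at 22.1, 28.6 and 38.7 CPM in 4OHT_siNT. It fell by 0.55 ± 0.13 on the log2 scale (adjusted p = 0.00183), and by 0.51 without 4-2V (adjusted p = 0.00202). NDUFS4, an accessory subunit of the matrix arm needed for late assembly, fell by 0.68 (adjusted p = 0.00599) and 0.43 (adjusted p = 0.00682) in the same fits. NDUFB9 was called only without 4-2V, at 0.60 ± 0.12 (adjusted p = 0.00028), and NDUFB10 likewise at 0.52 ± 0.12 (adjusted p = 0.00132).

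NDUFV2, a core subunit that carries an iron-sulfur cluster, depended on the library. It was at 94.8 to 165 CPM in the other 5 DMSO_siNT libraries and at 459.9 CPM in 4-2V, and at 141, 163 and 194 CPM in 4OHT_siNT. The log2 fold change was −0.04 ± 0.31 (adjusted p = 0.922) with 18 libraries and 0.55 ± 0.15 (adjusted p = 0.00308) without 4-2V. Within VM sets it was 0.43 ± 0.15 (adjusted p = 0.0268).

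NDUFA4 had the lowest adjusted p of all members in this comparison. It was at 119.6, 127 and 154 CPM in DMSO_siNT and at 83.2, 91.1 and 95.1 CPM in 4OHT_siNT. Every 4OHT_siNT library lay below every DMSO_siNT library, 4-2V included. It fell by 0.55 ± 0.09 on the log2 scale (adjusted p = 4.51e-05), by 0.56 without 4-2V (adjusted p = 1.37e-05) and by 0.62 within VM sets (adjusted p = 3.97e-05).

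Complex II, succinate dehydrogenase, also belongs to the tricarboxylic acid cycle, and its members did not move together. SDHA, which holds the FAD, was at 98.6, 126 and 145 CPM in DMSO_siNT and at 150.2, 152 and 159 CPM in 4OHT_siNT, with no overlap. It rose by 0.31 ± 0.09 (adjusted p = 0.00929), and by 0.26 without 4-2V (adjusted p = 0.00708). SDHD, a membrane anchor, was at 45.3, 51.9 and 66.3 CPM in DMSO_siNT and at 31.9, 38.02 and 45.2 CPM in 4OHT_siNT, so the groups lay close but did not overlap. It fell by 0.50 ± 0.12 (adjusted p = 0.00147), and by 0.43 without 4-2V (adjusted p = 0.00191). With siRNA 2 only, SDHD was not called, at −0.23 (edgeR adjusted p = 0.0572). SDHA was not called with siRNA 4 only (adjusted p = 0.133). Under a block on set labels neither SDHA nor SDHD was called (adjusted p = 0.179 and 0.0503).

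The other anchor, SDHC, was at 47.2, 58.3 and 70.2 CPM in DMSO_siNT and at 49.01, 53.6 and 59.1 CPM in 4OHT_siNT, a log2 fold change of −0.13 ± 0.09 (adjusted p = 0.27). SDHB, the iron-sulfur subunit whose promoter is shown above, was at 67.5 to 100.6 CPM in the other 5 DMSO_siNT libraries, 198 CPM in 4-2V and 94.9 to 114 CPM in 4OHT_siNT. Its log2 fold change was 0.07 ± 0.20 (adjusted p = 0.796) with 18 libraries and 0.40 ± 0.10 (adjusted p = 0.00153) without 4-2V. Within VM sets SDHA (0.24), SDHB (0.33) and SDHD (−0.45) were called by edgeR, with adjusted p = 0.0275, 0.0282 and 0.00526.

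Complex III passes electrons from quinol to cytochrome c, and 2 of its 9 tested members were called higher with 18 libraries (against 23.9% of all genes) and 3 without 4-2V (against 27.9%), with none lower in either fit. UQCRC1, a core protein, was at 191, 195 and 249 CPM in DMSO_siNT and at 274, 307 and 326 CPM in 4OHT_siNT, with no overlap. It rose by 0.56 ± 0.09 (adjusted p = 4.61e-05), by 0.55 without 4-2V (adjusted p = 2.34e-05) and by 0.52 within VM sets (adjusted p = 0.00102). UQCRH, the hinge protein, was called only without 4-2V, at 0.55 ± 0.14 (adjusted p = 0.00164). UQCRHL, a near copy of UQCRH, was at 2.14 to 4.66 CPM in DMSO_siNT and at 4.15 to 5.62 CPM in 4OHT_siNT, and was called at 0.72 ± 0.18 (adjusted p = 0.00274), although the groups overlapped. Its value is uncertain because reads of the copies may have been divided between them.

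Complex IV hands electrons to oxygen. With 18 libraries none of its 10 tested members was called higher by edgeR (none had a fold change above 0), and 3 were called lower (against 28.9% of all genes), with a median log2 fold change of −0.52. Without 4-2V, 1 was called higher and 2 lower (against 27.9% and 30.3%), and the median was −0.05. COX7A2, the ubiquitous isoform of a small structural subunit, was at 92.0, 111 and 334 CPM in DMSO_siNT and at 69.7, 81.2 and 92.2 CPM in 4OHT_siNT. Only the edges of the groups overlapped. It fell by 0.92 ± 0.25 on the log2 scale (adjusted p = 0.0043), and by 0.52 without 4-2V (adjusted p = 0.00257). COX7C fell by 1.05 ± 0.32 (adjusted p = 0.00982), and by 0.39 without 4-2V (adjusted p = 0.00285). With siRNA 2 only, COX7C was not called, at −0.22 (edgeR adjusted p = 0.0552). Under a block on set labels neither COX7A2 nor COX7C was called (adjusted p = 0.103 and 0.257). COX6C fell by 1.58 ± 0.52 with 18 libraries (adjusted p = 0.0154), and its value without 4-2V, −0.25, was not called (adjusted p = 0.176). COX5A, which sits on the matrix side, was called only without 4-2V, at 0.33 ± 0.11 (adjusted p = 0.0138).

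Complex V had 1 member called higher and 1 lower of 17 with 18 libraries (against 23.9% and 28.9% of all genes), and 1 higher and none lower without 4-2V (against 27.9% and 30.3%). ATP5F1B was at 369.9, 689 and 764 CPM in DMSO_siNT and at 821, 881 and 964 CPM in 4OHT_siNT. The groups did not overlap, with or without the lowest library, which was 4-2V. It rose by 0.44 ± 0.14 (adjusted p = 0.00998), by 0.33 without 4-2V (adjusted p = 0.00145) and by 0.29 within VM sets (adjusted p = 0.011). ATP5F1B was not called with siRNA 4 only or under a block on set labels (edgeR adjusted p = 0.106 and 0.148). ATP5ME was at 58.8, 73.1 and 854 CPM in DMSO_siNT and at 72.3, 78.4 and 91.2 CPM in 4OHT_siNT. Its log2 fold change of −1.35 ± 0.54 (adjusted p = 0.0419) became 0.07 (adjusted p = 0.748) without 4-2V.

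**Figure D4:**
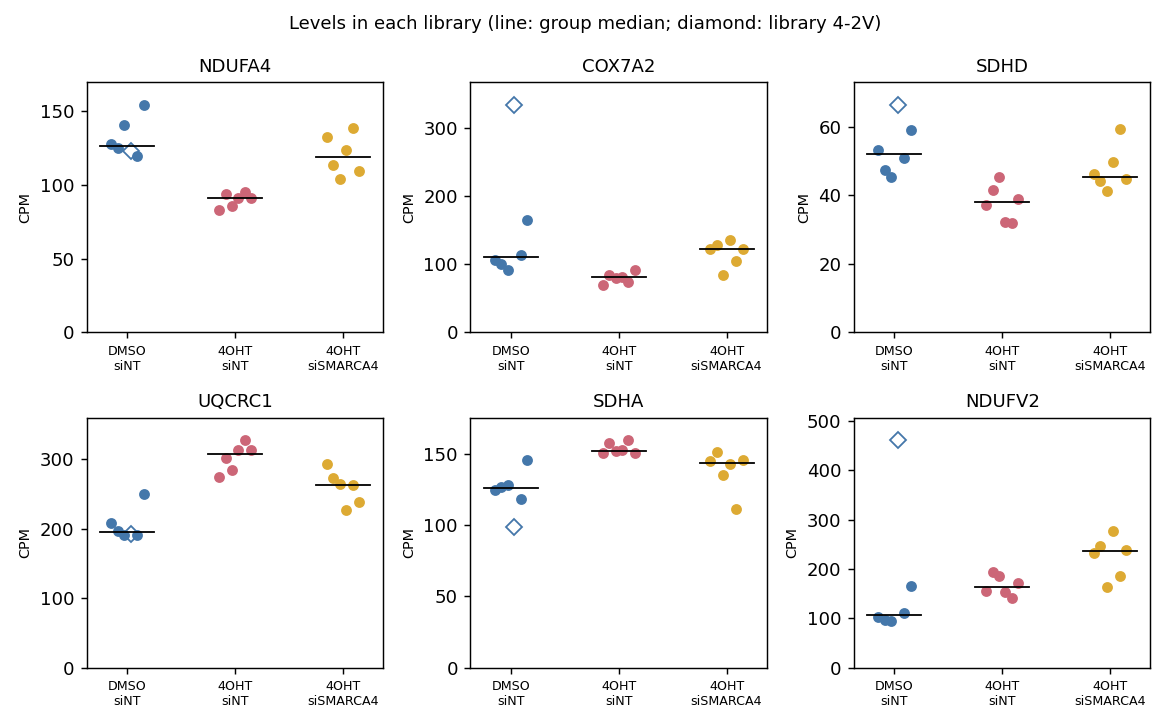
CPM (vertical axes, from 0) of 6 members in each library of the 3 groups, with the group median as a line and DMSO_siNT 4-2V as a diamond. NDUFA4 lies lowest in 4OHT_siNT without overlap, UQCRC1 and SDHA lie above DMSO_siNT there, and the diamond lies far above its group in NDUFV2 and COX7A2.

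To ask what loss of SMARCA4 did in senescent cells, 4OHT_siSMARCA4 was compared with 4OHT_siNT, with which the previous comparison shares libraries. With 18 libraries, NDUFA4 alone was called higher (1.3% of members, against 4.99% of all genes tested). None was called lower by edgeR, against 5.65% of all genes, with 2 lower at an unadjusted p under 0.05 and 1 called lower by DESeq2, which called 2 higher. The fold change was above 0 in 63 of 77 members, with a median of 0.13 on the log2 scale, against 0.01 for all genes. Under a block on set labels, given in the closing part, the members' median was slightly negative. Without DMSO_siNT 4-2V, which is in neither group compared here but enters the scaling, the filter and the shared estimate of spread, 9 members were called higher (11.7%, against 11.7% of all genes) and 1 lower (1.3%, against 12.9%), with a median of 0.12. Every 4OHT_siNT library came from a VM set, while 4OHT_siSMARCA4 also had V libraries. Knockdown and set letters are thus partly confounded. Among 4OHT_siSMARCA4 libraries, VM read higher than V in 64 of 77 members, with a median log2 difference of 0.17. The fit within VM sets held only libraries 2-3VM and 4-2VM of 4OHT_siSMARCA4. Within VM sets 8 members were called, all higher (10.4%, against 21% of all genes in either direction), with a median of 0.20. Of 8 fibroblast markers, 5 were called lower and none higher in this comparison, with a median log2 fold change of −1.06, the proliferation marker TOP2A was called higher at 0.79 without 4-2V, and their part in the members' values was not tested.

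NDUFA4 was at 104, 119 and 139 CPM in 4OHT_siSMARCA4. Every one of these libraries lay above every 4OHT_siNT library. It rose by 0.42 ± 0.09 (edgeR adjusted p = 0.00541), by 0.41 without 4-2V (adjusted p = 0.00157) and by 0.38 within VM sets (adjusted p = 0.0185). In a model that blocked on set labels it was not called, at 0.37 (adjusted p = 0.203).

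The other members called higher without 4-2V came from each complex. In complex I they were NDUFC1 at 0.44 ± 0.15 (adjusted p = 0.0335), NDUFV2 at 0.42 ± 0.14 (adjusted p = 0.0321), NDUFA5 at 0.39 ± 0.12 (adjusted p = 0.0254) and NDUFB5 at 0.37 ± 0.11 (adjusted p = 0.0197). SDHD of complex II was called at 0.32 ± 0.10 (adjusted p = 0.0289), and UQCRFS1, the Rieske iron-sulfur protein of complex III, at 0.32 ± 0.11 (adjusted p = 0.0398). COX7A2 of complex IV had the largest value, 0.52 ± 0.13 (adjusted p = 0.00627), and ATP5MD, a small membrane subunit of the ATP synthase, was called at 0.44 ± 0.15 (adjusted p = 0.0363). NDUFA10, an accessory subunit of complex I, was the member called lower, at −0.21 ± 0.07 (adjusted p = 0.0264). With 18 libraries these 9 had adjusted p-values from 0.0598 (NDUFA5) to 0.548 (ATP5MD).

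COX7A2 was at 84.9, 122 and 136 CPM in 4OHT_siSMARCA4, and its lowest library overlapped with 4OHT_siNT. NDUFB5, an accessory subunit of the membrane arm, was at 65.1, 75.2 and 80.7 CPM against 45.5, 56.7 and 67.8 CPM in 4OHT_siNT, and overlapped with it too. SDHD was at 41.3, 45.4 and 59.5 CPM, and its median lay between those of the other groups, as did that of NDUFA4. SDHA was at 111, 144 and 151 CPM and SDHC at 52.9, 54.3 and 65.2 CPM. Neither was called in this comparison, at −0.15 ± 0.09 (adjusted p = 0.352) and 0.06 ± 0.09 (adjusted p = 0.739). UQCRC1 was at 227, 263 and 292 CPM, with a log2 fold change of −0.22 ± 0.09 that missed the threshold in both fits (adjusted p = 0.141 and 0.0521).

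**Figure D5:**
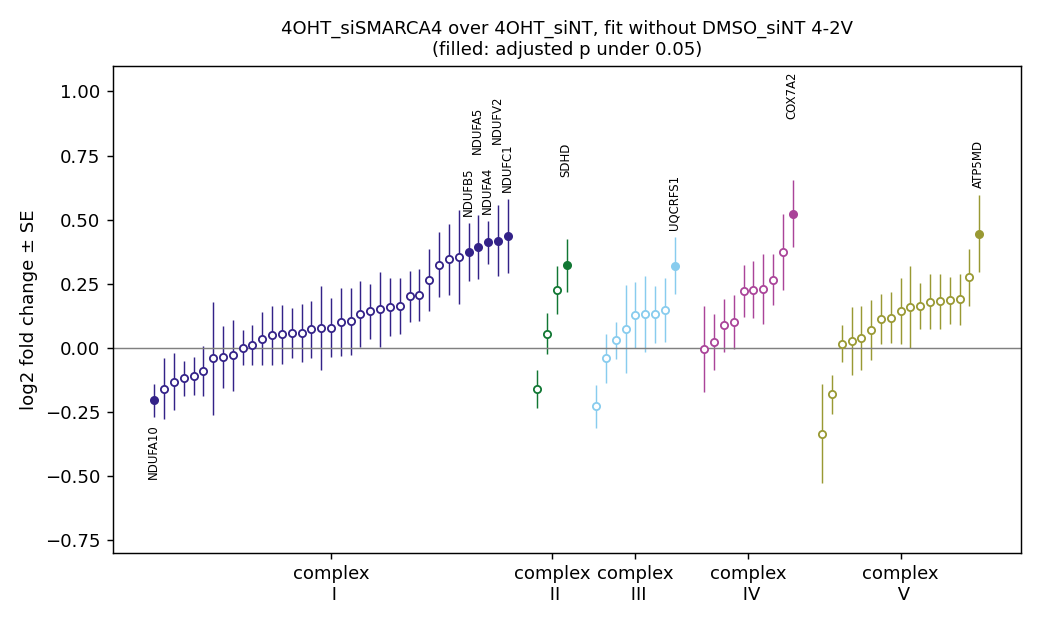
Log2 fold change ± SE (vertical axis) of 4OHT_siSMARCA4 over 4OHT_siNT for the 77 members, ordered within each complex (horizontal axis), in the fit without DMSO_siNT 4-2V, filled where the adjusted p is under 0.05. Each complex holds at least 1 member called higher, COX7A2 lies highest at 0.52, and NDUFA10 at −0.21 is the member called lower.

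Senescent cells with SMARCA4 knocked down were last compared with growing cells, using the same DMSO_siNT libraries as the first comparison. With 18 libraries, 2 members were called higher (2.6%, against 23.3% of all genes) and 6 lower (7.79%, against 27.3%), with a median log2 fold change of −0.19. Those higher were UQCRC1 at 0.34 ± 0.09 (edgeR adjusted p = 0.00452) and UQCRHL at 0.80 ± 0.18 (adjusted p = 0.00108). The 6 lower members were NDUFA9, NDUFA12, NDUFB7 and NDUFC2 of complex I, COX7C of complex IV and ATP5F1E, the epsilon subunit of the ATP synthase. Without 4-2V, 22 were called higher (28.6%, against 28.7% of all genes) and 3 lower (3.9%, against 30.5%), with a median of 0.13. Here 38 members changed sign. Of the 8 fibroblast markers 1 was called higher and 5 lower in both fits, with a median of −1.72 and COL1A2 at −2.98 with 18 libraries, while MKI67 stood at −5.05 and VWF was called higher at 1.06. Their part in the members' values was not tested.

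The 3 that were lower in both fits were ATP5F1E at −0.79 ± 0.21 (adjusted p = 0.00318) and −0.68 (adjusted p = 0.00606), NDUFA12 at −0.40 ± 0.10 (adjusted p = 0.00272) and −0.40 (adjusted p = 0.00241), and NDUFA9 at −0.33 ± 0.11 (adjusted p = 0.0216) and −0.21 (adjusted p = 0.0293). None of the 3 was called lower within VM sets. ATP5F1E was low throughout, at 2.85 to 5.74 CPM in DMSO_siNT and at 1.62 to 2.76 CPM in 4OHT_siSMARCA4. By edgeR it missed the threshold within VM sets (adjusted p = 0.11), with siRNA 2 alone (0.0523) and with siRNA 4 alone (0.0557). NDUFA12, an accessory subunit of the matrix arm, was at 31.6, 34.7 and 42.5 CPM in DMSO_siNT, at 25.4, 28.2 and 32.5 CPM in 4OHT_siNT and at 22.1, 27.5 and 30.7 CPM in 4OHT_siSMARCA4. The last group lay below every DMSO_siNT library.

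The largest rise without 4-2V was that of NDUFV2, at 0.97 ± 0.15 (adjusted p = 1.02e-05). It was at 164, 236 and 277 CPM in 4OHT_siSMARCA4, where its lowest library overlapped with the highest of the other 5 DMSO_siNT libraries. NDUFB9 followed among complex I members at 0.67 ± 0.12 (adjusted p = 7.52e-05). SDHB rose by 0.62 ± 0.10 (adjusted p = 1.42e-05) and was at 104, 124 and 130 CPM, above all other 5 DMSO_siNT libraries. UQCRH rose by 0.68 ± 0.14 (adjusted p = 0.000234), COX5A by 0.55 ± 0.11 (adjusted p = 0.000209) and ATP5MC3 by 0.40 ± 0.10 (adjusted p = 0.00126). With 18 libraries each of these fold changes was above 0, from 0.11 to 0.41, and none was called.

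This comparison could be repeated within both kinds of set. Within VM sets 10 members were called, all higher (13%, against 43.9% of all genes in either direction), with a median log2 fold change of 0.12. Within V sets none was called by edgeR, against 21.1% of all genes, and 2 had an unadjusted p under 0.05. V sets without 4-2V called 19 members (24.7%, against 44.1%), with a median of 0.23. That fit held DMSO_siNT 2-1V and 2-2V, both siRNA 2, and 4OHT_siSMARCA4 2-3V, 4-2V and 4-3V. Group and siRNA number are thus partly confounded in it. NDUFV2 stood at 1.07 within VM sets and 0.97 within V sets without 4-2V (adjusted p = 0.000328 and 0.000761). SDHB stood at 0.55 and 0.74 (adjusted p = 0.0076 and 0.00208).

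VM and V libraries were also compared with each other by edgeR. No member was called within DMSO_siNT, where 18 had an unadjusted p under 0.05 and 0.324% of all genes were called. Without 4-2V there was again none, with 8 at an unadjusted p under 0.05 and 0.862% of all genes called. The V libraries of DMSO_siNT left there, 2-1V and 2-2V, both carried siRNA 2. Within 4OHT_siSMARCA4 none was called (0.101% of all genes), and none had an unadjusted p under 0.05. In the fit without 4-2V none was called there either (1.62% of all genes), and 3 had an unadjusted p under 0.05. The difference between VM and V sets in the effect of 4OHT_siSMARCA4 over DMSO_siNT called no member either (0.0864% of all genes), with 7 at an unadjusted p under 0.05, or none without 4-2V (0.406% of all genes called). DESeq2 was not run on these contrasts.

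The siRNA numbers gave unlike counts, and both DMSO_siNT libraries with the highest members, 4-2V and 4-3VM, carried siNT 4. With siRNA 2 alone, 37 members were called higher (against 28.4% of all genes) and 2 lower (28.9%) in 4OHT_siNT over DMSO_siNT, by edgeR. In 4OHT_siSMARCA4 over 4OHT_siNT the counts were 19 higher (11.8%) and none lower (13.9%), with 2 lower at an unadjusted p under 0.05. In 4OHT_siSMARCA4 over DMSO_siNT they were 51 higher (29.9%) and 1 lower (31.2%). The fits of siRNA 4 alone hold DMSO_siNT 4-2V, also in the shared estimate of spread, and were not repeated without it. With siRNA 4 alone, 1 was called higher (16.2%) and 12 lower (19.4%) in the first comparison. In the second, none was called higher (0.0151% of all genes) or lower (0.0151%), with 2 higher and none lower at an unadjusted p under 0.05. In the third, none was higher (14%), also at an unadjusted p under 0.05, and 6 were lower (17.2%).

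The difference between the siRNA numbers was then tested itself. In the effect of 4OHT_siSMARCA4 over 4OHT_siNT no member differed by edgeR (0.0146% of all genes), and none had an unadjusted p under 0.05. Without 4-2V again none was called (0.73% of all genes), and SDHD alone had an unadjusted p under 0.05. In the effect of 4OHT_siNT over DMSO_siNT no member and no other gene was called (0% of all genes), although 59 members had an unadjusted p under 0.05. Without 4-2V, NDUFC2 was called (1 of 77, against 0.759% of all genes), with a difference of 1.24 ± 0.26 on the log2 scale (adjusted p = 0.041), and 29 members had an unadjusted p under 0.05. UQCRC1 moved alike under both numbers, at 0.54 with siRNA 2 and 0.62 with siRNA 4 (adjusted p = 0.000192 and 0.0234). NDUFA4 stood at −0.58 and −0.49 (adjusted p = 0.000171 and 0.0516), and NDUFV2 at 0.86 and −0.63 (adjusted p = 4.76e-06 and 0.292). The siRNA 4 values come from fits that hold 4-2V.

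Isoforms of the same subunit differed in level. Per kilobase of canonical transcript, COX7A2 had a median of 239 CPM per kb in DMSO_siNT, 176 in 4OHT_siNT and 265 in 4OHT_siSMARCA4, while the heart and muscle isoform COX7A1 had 13.5, 11.9 and 12.2 CPM per kb. COX7A1 was at 3.62 to 5.82 CPM in the other 5 DMSO_siNT libraries and at 24.7 CPM in 4-2V, and was not called in any comparison with 18 libraries (adjusted p = 0.0643 to 0.995) or without 4-2V. The 3 genes for the c subunit of the ATP synthase rotor, whose mature protein is the same, stood in DMSO_siNT at 207 CPM per kb for ATP5MC2, 75.7 for ATP5MC1 and 73.8 for ATP5MC3. Their order depends on the transcript length used. In plain CPM the medians of the other 5 DMSO_siNT libraries were 191 for ATP5MC3, 127 for ATP5MC2 and 47.0 for ATP5MC1. Of these 3 genes, ATP5MC3 alone was called, in 4OHT_siSMARCA4 over DMSO_siNT without 4-2V. COX6A1, COX6B1, COX7B and COX8A, the ubiquitous partners of the isoforms that did not pass the filter, had medians of 62.3 to 135 CPM in DMSO_siNT. Of them, COX7B alone was called, at 0.46 ± 0.14 (adjusted p = 0.0102) in 4OHT_siSMARCA4 over DMSO_siNT without 4-2V.

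Members with and without a promoter motif were set side by side. Of the 28 members with a motif, 1 was called higher and 4 lower in 4OHT_siNT over DMSO_siNT with 18 libraries, and 4 and 3 without 4-2V. Of the 35 tested members with a promoter but no motif, the counts were 2 and 9 with 18 libraries, and 6 and 5 without 4-2V. All genes were called at 23.9% higher and 28.9% lower with 18 libraries, and at 27.9% and 30.3% without 4-2V. The median log2 fold changes in that comparison without 4-2V were 0.05 with and 0.04 without a motif. In 4OHT_siSMARCA4 over 4OHT_siNT they were 0.14 and 0.10, and in 4OHT_siSMARCA4 over DMSO_siNT 0.15 and 0.12, also without 4-2V. Of the members whose promoters are shown above, NDUFS6 and COX5B were not called in 4OHT_siNT over DMSO_siNT, at −0.72 ± 0.41 (adjusted p = 0.147) and −0.51 ± 0.27 (adjusted p = 0.12), and SDHB and UQCRH were called only without 4-2V.

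Other genes of the pathway were counted from lists in the same fits. The shares of all genes called higher and lower, against which these counts are read, were 23.9% and 28.9% in 4OHT_siNT over DMSO_siNT (27.9% and 30.3% without 4-2V), 4.99% and 5.65% in 4OHT_siSMARCA4 over 4OHT_siNT (11.7% and 12.9%), and 23.3% and 27.3% in 4OHT_siSMARCA4 over DMSO_siNT (28.7% and 30.5%). Of 49 assembly factors, which build the complexes, 7 were called higher and 9 lower in 4OHT_siNT over DMSO_siNT with 18 libraries, and 11 and 6 without 4-2V. SCO2, a copper chaperone for complex IV, was at 19.7, 24.3 and 43.7 CPM in DMSO_siNT and at 35.5, 38.5 and 43.5 CPM in 4OHT_siNT, and rose by 0.54 ± 0.15 (adjusted p = 0.0047), or 0.73 without 4-2V. PET100, which acts in complex IV assembly, fell by 1.55 (adjusted p = 0.0149) and had −0.32 without 4-2V (adjusted p = 0.13), and it was at 216 CPM in 4-2V against 18.6 to 36.8 CPM in the other 5 DMSO_siNT libraries. COX20, which chaperones a mitochondrially encoded subunit of complex IV, fell by 1.18 with 18 libraries (adjusted p = 8.49e-06) and by 1.05 ± 0.15 without 4-2V (adjusted p = 3.33e-06). In 4OHT_siSMARCA4 over 4OHT_siNT 2 assembly factors were higher and none lower (6 and 2 without 4-2V), among them TMEM126B, a complex I assembly factor, at 0.48 ± 0.11 (adjusted p = 0.0105), or 0.47 without 4-2V. In 4OHT_siSMARCA4 over DMSO_siNT 13 were higher and 6 lower, with SCO2 at 0.66 ± 0.15 (adjusted p = 0.000959, or 0.84 without 4-2V) and UQCC3, an assembly factor of complex III, at −1.69 (adjusted p = 0.00789). UQCC3 was at 177 CPM in 4-2V and 16.4 to 32.1 CPM in the other 5 DMSO_siNT libraries, and without 4-2V it stood at −0.56 (adjusted p = 0.0194). Without 4-2V 21 were higher and 7 lower, with ATPAF1, an assembly factor of complex V, at −0.69 ± 0.09 there (adjusted p = 2.29e-06).

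Of 17 regulators of mitochondrial biogenesis and mitochondrial DNA expression, 7 were called higher and none lower in 4OHT_siNT over DMSO_siNT, and 8 and 1 without 4-2V. The regulator called lower was YY1, whose motif was counted above, at −0.18 ± 0.07 (edgeR adjusted p = 0.0384). PPARGC1B, a coactivator of mitochondrial genes, was at 0.926, 1.08 and 1.73 CPM in DMSO_siNT and at 3.25, 4.83 and 5.94 CPM in 4OHT_siNT, with no overlap. It rose by 1.99 ± 0.21 (adjusted p = 1.46e-07), and by 1.98 without 4-2V. In 4OHT_siSMARCA4 over 4OHT_siNT 3 were higher and 1 lower (3 and 3 without 4-2V). TFB2M, a mitochondrial transcription factor, rose by 0.42 ± 0.13 (adjusted p = 0.0364), and the related coactivator PPARGC1A fell by 1.09 ± 0.35 (adjusted p = 0.0489) from a median of 1.14 to one of 0.468 CPM. Without 4-2V they stood at 0.41 and −1.10. In 4OHT_siSMARCA4 over DMSO_siNT 8 were higher and none lower (9 and none without 4-2V).

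Of 13 other enzymes of the tricarboxylic acid cycle, 4 were higher and 3 lower in 4OHT_siNT over DMSO_siNT (6 and 3 without 4-2V), none higher and 1 lower in 4OHT_siSMARCA4 over 4OHT_siNT (1 and 1), and 1 higher and 2 lower in 4OHT_siSMARCA4 over DMSO_siNT (3 and 2). FH, fumarase, which acts on the product of complex II, was at 72.4, 86.1 and 88.5 CPM in DMSO_siNT, at 56.2, 58.7 and 61.4 CPM in 4OHT_siNT and at 44.3, 49.4 and 54.2 CPM in 4OHT_siSMARCA4. None of the groups overlapped. In 4OHT_siNT over DMSO_siNT it fell by 0.52 ± 0.08 (adjusted p = 1.12e-05), and by 0.55 without 4-2V. It fell by 0.25 ± 0.08 on the log2 scale in 4OHT_siSMARCA4 over 4OHT_siNT (adjusted p = 0.0403) and by 0.76 ± 0.08 in 4OHT_siSMARCA4 over DMSO_siNT (adjusted p = 6.65e-08), and without 4-2V by 0.26 and 0.81. In 4OHT_siNT over DMSO_siNT, OGDH, a subunit of the oxoglutarate dehydrogenase complex, rose by 0.62 (adjusted p = 0.0328), or 0.43 without 4-2V. SUCLG2, a subunit of succinyl-CoA ligase, fell by 0.82 (adjusted p = 6.6e-05), and by 0.68 without 4-2V.

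Genes of the mitochondrial ribosome, which makes the mitochondrially encoded subunits, were taken by their MRPL and MRPS symbols. Such a symbol, that of MRPS36 included, does not show that the product is part of the ribosome. Of 76 tested, 9 were higher and 12 lower in 4OHT_siNT over DMSO_siNT (22 and 11 without 4-2V). The counts were 4 higher and none lower in 4OHT_siSMARCA4 over 4OHT_siNT (11 and none), and 10 higher and 8 lower in 4OHT_siSMARCA4 over DMSO_siNT (29 and 6). MRPS2 rose by 0.85 ± 0.09 in the first comparison (adjusted p = 1.64e-07), MRPS36 by 0.52 ± 0.14 in the second (adjusted p = 0.0221) and MRPL15 by 1.11 ± 0.10 in the third (adjusted p = 2.08e-08), or 0.84, 0.51 and 1.14 without 4-2V. MRPL23 fell by 2.24 in the first comparison (adjusted p = 0.00172) and by 1.02 without 4-2V, a library with 73.9 CPM of it against 6.91 to 11.6 CPM in the other 5. Of 8 subunits and isoforms that the symbols leave out, 6 were tested. CYC1 was not called with 18 libraries, at 0.55 ± 0.34 (adjusted p = 0.183), and without 4-2V it rose by 0.32 ± 0.07 in 4OHT_siNT over DMSO_siNT (adjusted p = 0.000937). In 4OHT_siSMARCA4 over 4OHT_siNT without 4-2V, COX7A2L, which joins complexes III and IV, rose by 0.38 ± 0.10 (adjusted p = 0.012) and ATP5IF1, the inhibitor of the ATP synthase, fell by 0.45 ± 0.15 (adjusted p = 0.0385).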

How the data were processed

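RNA from IMR90 ER:RAS cells on day 7 was sequenced as strand-specific polyA libraries with single-end reads. The deposited table holds raw read counts per gene, which the authors made per sequencing lane. The submitters' processing notes name STAR 2.7.8a, hg38 and DESeq2 1.36.0, and the annotation and counter are not given in the sources used here. The 36 columns are 2 lanes for each of 18 libraries, which were summed, and 0 columns belong to other samples. The labels list 29 samples. Of the libraries, 17 matched a labelled sample, and 1 (4OHT_siSMARCA4, siRNA 2, called unlabelled here) matched its group alone: its column name gives set 1VM, which no labelled sample of that siRNA has. Fits of VM sets leave it out, and the closing part gives the counts with it.

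Quasi-likelihood models were fitted to the summed counts of all 3 groups in edgeR 4.0.16 (limma 3.58.1, R 4.3.3), with TMM scaling, a filterByExpr minimum count of 10 and Benjamini-Hochberg adjustment over all 13136 genes tested, or 13276 without DMSO_siNT 4-2V. The tested genes held 99.9% of counts. The common biological coefficient of variation was 23.3%, or 15.4% without that library. Log2 CPM used a prior count of 2. DESeq2 1.42.0, other scalings, filters, thresholds, subsets of libraries and each library left out were alternatives. Figures were drawn with Python 3.11.15 and matplotlib 3.10.9. Transcript lengths came from GENCODE 44 and promoters from RefSeq, neither shown to be the annotation behind the counts. The scripts were tested on simulated data. Total counts ranged from 9657309 to 18039313. Read-through and near-copy genes may share reads.

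Deviations from group means had r of −0.23 to 0.27 between same-numbered sets, and set 3VM was positive in each comparison (0.15 to 0.27). This does not show whether set labels share more than a number. Whether siRNAs 2 and 4 are the same reagents in each arm is not stated. The members and lists were chosen with earlier results of these data known. Named with values were the called members with the largest rise and fall in each complex and comparison, those called in 4OHT_siSMARCA4 over 4OHT_siNT, the SDH genes, isoform families and some of the called extremes of the lists. Further members and CYC1, COX20 and FH values were named after their values were seen. The closing part gives the alternatives. The values of 1 member of complex I are not reported here.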

Additional observations from a re-analysis of the deposited data

Results flagged for a closer look

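In groups of 6 libraries, the gap between the highest or lowest library and its nearest neighbour, as a share of the group's whole range of log2 CPM, was set against Dixon's critical value for 6 values. Chance flags about 1 in 20 groups, or about 4.05 of the 81 groups examined, and 15 stood apart, of which 12 were DMSO_siNT 4-2V. Some of these members were named for falls in fits that hold this library, and members share libraries. The chance figure is therefore no test of that library. That library was the highest for COX6C (0.758), COX7A1 (0.756), ATP5ME (0.75), NDUFC2 (0.745), COX7C (0.711), COX6B1 (0.667), ATP5MC3 (0.631), SDHB (0.63) and COX6A1 (0.625, just past the critical value). It was also the highest for the mean of complex IV (0.677) and of complex I (0.647), and the lowest for ATP5F1B (0.791).

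In the other groups, 4OHT_siNT 2-1VM was lowest for ATP5MC2 (0.626), 4OHT_siSMARCA4 4-2V was lowest for NDUFC2 (0.782) and 4OHT_siSMARCA4 4-3V was highest for SDHC (0.832). The effect of 4OHT_siNT over DMSO_siNT on NDUFC2 differed between siRNA 2 and siRNA 4 by 1.24 ± 0.26 on the log2 scale without DMSO_siNT 4-2V (edgeR adjusted p = 0.041), and by 2.91 with 18 libraries (adjusted p = 0.0974).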

How the results depend on the processing

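Numbers are given in the order 4OHT_siNT over DMSO_siNT (comparison 1), 4OHT_siSMARCA4 over 4OHT_siNT (comparison 2) and 4OHT_siSMARCA4 over DMSO_siNT (comparison 3), and the cause of a change was not tested. The counts of members in this part stand without the share of all genes called in the same fit. That share also moved, in comparison 2 from 4.99% to 11.7% higher without DMSO_siNT 4-2V. These counts alone therefore do not show whether the members moved apart from other genes. Leaving out 1 library moved the members called higher from 4 to 14, 1 to 9 and 2 to 22, those called lower from 8 to 27, 0 to 1 and 2 to 15, and the median from −0.45 to 0.04, 0.09 to 0.16 and −0.30 to 0.13. Without DMSO_siNT 4-2V 14, 9 and 22 were higher and 8, 1 and 3 lower. Without DMSO_siNT 2-1V, 2-2V or 2-2VM, 25, 23 and 27 were lower in comparison 1 and 15, 15 and 14 in comparison 3, where 10 were lower without DMSO_siNT 4-2VM, 2 without 4OHT_siSMARCA4 4-2V and 3 without each of 4OHT_siSMARCA4 2-3V, 4-3V and the unlabelled library. In comparison 2, 2 were higher without 4OHT_siNT 2-2VM or without 4OHT_siSMARCA4 4-2V. With siRNA 2 only, 37, 19 and 51 were higher and 2, 0 and 1 lower, with medians of 0.22 and 0.33 in comparisons 1 and 3. With siRNA 4 only, 4-2V included, 1, 0 and 0 were higher. VM sets gave 10, 8 and 10 higher and 8, 0 and 0 lower, and V sets 0 and 0 in comparison 3. The fit of only the 2 groups compared gave 14 higher and 2 lower in comparison 2 and 2 lower in comparison 3. Without TMM 3 and 2 were higher in comparisons 1 and 2, DESeq2 gave 2 and 4 higher in comparisons 2 and 3 and 1 lower in comparison 2, and a filter of at least 1 count gave 3 lower in comparison 3. An adjusted p under 0.01 gave 6 and 2 lower in comparisons 1 and 3, and a change over 1.5-fold 1, 0 and 1 higher.

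Under a replicate block on set labels, 1, 0 and 1 members were higher, 3 were lower in comparison 1 and 2 in comparison 3, and the median in comparison 2 was −0.031. The pairing check does not show that the labels pair libraries.

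Alternatives chosen after seeing the data were these, again without the shares of all genes called. Without DMSO_siNT 4-2V and 4-3VM, 27, 17 and 44 were higher and 6, 2 and 2 lower, with medians of 0.15 and 0.27 in comparisons 1 and 3. Without 4-2V and 4OHT_siSMARCA4 4-3V, 10 and 22 were higher in comparisons 2 and 3, and 2 lower in comparison 2. VM sets with the unlabelled library gave 10, 11 and 11 higher, and 2 and 3 lower in comparisons 2 and 3.

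Among named members' fold changes called with 18 libraries or under the alternative, these turned from negative to positive (uncalled values that turned are left out). In 4OHT_siNT over DMSO_siNT with siRNA 2 only they became ATP5MC3 0.33, ATP5ME 0.38, COX6A1 0.26, COX6B1 0.31, COX6C 0.10, COX7B 0.45 and NDUFC2 0.15. Without both 4-2V and 4-3VM they became ATP5MC3 0.32, ATP5ME 0.27, COX6A1 0.21, COX6B1 0.27 and COX7B 0.42, and without 4-2V alone ATP5ME 0.068. Leaving out 1 library moved ATP5ME from −1.54 to 0.068. In 4OHT_siSMARCA4 over DMSO_siNT with siRNA 2 only they became ATP5ME 0.68, COX6A1 0.33, COX6B1 0.34, COX6C 0.50, COX7A2 0.32, COX7B 0.79, COX7C 0.068 and NDUFC2 0.30. Without both libraries they became ATP5ME 0.43, COX6A1 0.31, COX6B1 0.29, COX6C 0.33, COX7B 0.65, COX7C 0.0036, COX8A 0.27 and NDUFC2 0.16. COX7B became 0.48 without 4-2V and 4OHT_siSMARCA4 4-3V, and 0.46 without 4-2V alone, and leaving out 1 library moved it from −0.44 to 0.46. Of the values of the 22 named members under alternatives, 614, 698 and 657 kept their side of the threshold. Among these, values uncalled in both fits may have changed sign. A call was lost by 59, 3 and 45 without a change of sign, and gained by 18, 25 and 28.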
